A study of Homo sapiens with 6 samples.

Results

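The 49 genes described here encode the cytosolic and mitochondrial chaperones of human cells, their partner proteins and the heat shock factors that control them. They were chosen by symbol as a functional set, with no threshold on their values but with earlier results of these data known, and all 49 were found among the 16617 genes of the authors' deposited table. They fall into 10 classes. T3M4 is a cell line established from a human pancreatic ductal adenocarcinoma, and its RNA was sequenced in 6 libraries. The 3 sgControl libraries (genotype WT) come from cells with a control guide RNA, and the 3 sgMETTL13 libraries from cells with a guide against METTL13, which the labels call a knockdown. Both groups were grown in the same serum-containing medium, and the sources used here do not say whether the cells were clones or pools. METTL13 is a methyltransferase that acts on eEF1A, the elongation factor that brings aminoacyl-tRNA to the ribosome, and the RNA data were collected beside protein measurements that were not used here.

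Chaperones bind proteins that are newly made or damaged and help them to fold. HSP70 proteins hold short hydrophobic stretches in a cycle driven by ATP, which J-domain proteins start and nucleotide exchange factors end, while HSP90 acts later on partly folded clients and the chaperonins TRiC and HSPD1-HSPE1 enclose proteins in a chamber. When unfolded proteins accumulate, heat shock factor 1 (HSF1) is released from chaperones, binds heat shock elements in DNA and raises the transcription of many of these genes. Cancer cells commonly carry high levels of chaperones.

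The authors' deposited table holds the mean of each group, as TPM (a level scaled by transcript length and by the library's total) and as estimated reads, and the authors' comparison, a log2 ratio of sgMETTL13 over sgControl with an adjusted p. Values of single libraries are not analysed here, so the error given is an implied standard error, obtained by dividing the size of each deposited log2 ratio by the normal quantile that belongs to its p-value, and the 95% interval that follows from it. Nothing in the labels says that the libraries of a group came from separate cultures, so the p-values may measure technical spread. METTL13 itself went from a mean of 39.9 to 5.63 TPM in the authors' deposited table, a log2 ratio of -2.78 (adjusted p = 2.5e-127). The average estimated reads summed to 15240866 per sgControl library and 15247500 per sgMETTL13 library. Of cell type markers, the 8 ductal epithelial markers examined, among them KRT19 and EPCAM, had mean levels from 53.7 to 2107 TPM in sgControl, and 1 of them, MUC1, was called (log2 ratio -0.46 in the authors' deposited table). Of the 17 fibroblast, immune, endothelial, acinar and endocrine markers, 12 are in the table, and CD68 at 40.9 TPM and COL1A1 at 14.0 TPM in sgControl were the most abundant of them. The fibroblast markers summed to 17.2 TPM in sgControl and 17.3 TPM in sgMETTL13, with COL1A2 listed at 0 in the former and PDGFRB in the latter.

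Chaperone transcripts differed little between the groups. Of the 49 genes, 2 passed an adjusted p of 0.05 by the authors' deposited table, HSF1 higher and the mitochondrial HSP90 gene TRAP1 lower in sgMETTL13. Over all genes 3.8% were called, 2.73% higher and 1.08% lower. Most of the members are abundant: 43 reached the median of 205 mean reads, and of all the genes that did so 7.04% were called, 5.21% higher and 1.83% lower. Both called members are abundant, and their share was near the background. The median log2 ratio of the 49 was -0.02 in the authors' deposited table (quartiles -0.10 and 0.04), against 0.00 for all genes. As deposited, the uncalled member closest to the threshold was CDC37, at an adjusted p of 0.122. With the authors' p-values adjusted over abundant genes only, CDC37 came nearer, at 0.0667. By that filter HSPA1B had 0.0908, BAG6 0.0944 and HSPA1A 0.0969, and the called members were the same 2. The implied intervals were narrow for most of the members: for 46 of 49 the whole interval lay within a 1.5-fold change in either direction, and for 6 within 1.1-fold.

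**Figure D1:**
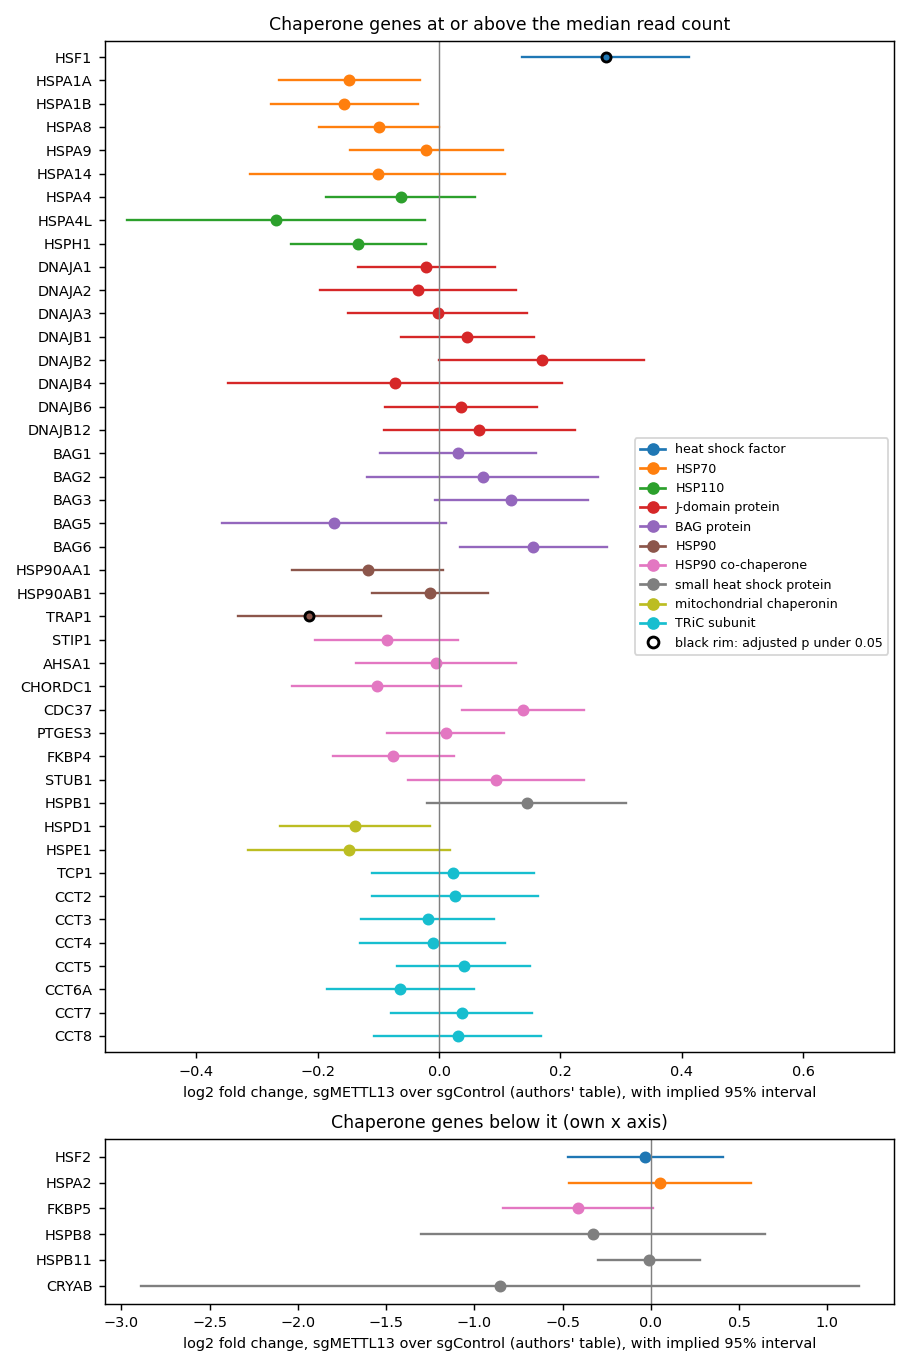
Log2 ratio of each chaperone gene, sgMETTL13 over sgControl, from the authors' deposited table (points) with the implied 95% interval (lines), coloured by class; the upper panel holds the 43 abundant genes and the lower panel, with its own axis, the other 6. The 2 points with a black rim, HSF1 at 0.27 and TRAP1 at -0.21, had an adjusted p under 0.05, and the intervals of the 8 TRiC subunits all cross 0.

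HSF1, the main transcription factor of the heat shock response, rose 1.21-fold. In the authors' deposited table its mean level was 181.03 TPM in sgControl and 209.53 TPM in sgMETTL13, with 2915 and 3405 mean reads. The log2 ratio in the authors' deposited table was 0.27 (implied standard error 0.070, interval from 0.14 to 0.41, adjusted p = 0.00444). This places HSF1 at percentile 95.4 of the ratios of all abundant genes. The gene occupies bases 144291591 to 144314722 of chromosome 8, plus strand (GRCh38, GENCODE 29). Its transcript is rich in G and C (63.9%), and fold changes in this comparison rose with GC content: the median log2 ratio of abundant genes was 0.09 between 60 and 65% GC and -0.04 between 35 and 40%. With a smooth trend of the ratios over GC content and transcript length taken out, the fold change of HSF1 was 0.16 and it no longer passed the test (adjusted p = 0.305). HSF1 kept its call with centred fold changes (adjusted p = 0.00477) and on the ratio of mean reads (0.22, adjusted p = 0.0368). On the ratio of mean TPM its fold change was 0.21, with an adjusted p just above the threshold. That scale lies lower for genes in general (median of all genes -0.07) and was not centred before the test. The exons of HSF1 share 139 bases, 2.62% of their length, with those of DGAT1 on the opposite strand. They also overlap exons of AC233992.1 on the opposite strand, by a length that was not measured. The sources used here do not say whether counting used the strand, and DGAT1 had a log2 ratio of 0.04 in the authors' deposited table with 819.67 and 813 mean reads.

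HSF2, the second heat shock factor, which acts in development and can join HSF1 on DNA, was scarce. Its mean level in the authors' deposited table was 4.29 TPM in sgControl and 3.87 TPM in sgMETTL13, with a log2 ratio of -0.03 (interval from -0.47 to 0.41, adjusted p = 0.983). With 83.67 and 79 mean reads in the authors' deposited table, a change of the size seen for HSF1 was not detectable for HSF2.

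The HSP70 genes, the most abundant class, made up 32.6% of the summed TPM of the 49 members in sgControl and 30.8% in sgMETTL13. None of the 6 was called. HSPA8, the constitutive cytosolic HSP70, had the highest level of all members, with a mean of 2412 TPM in sgControl and 2137 TPM in sgMETTL13 in the authors' deposited table. Its log2 ratio there was -0.10 (implied standard error 0.050, adjusted p = 0.401). HSPA1A and HSPA1B, the stress-inducible pair, had means of 1196 and 762.2 TPM in sgControl and 1026 and 650.3 TPM in sgMETTL13 in the authors' deposited table. Their log2 ratios in the authors' deposited table were -0.15 (interval from -0.26 to -0.03) and -0.16 (interval from -0.28 to -0.04), with adjusted p values of 0.174 and 0.163. The mitochondrial HSPA9, at 280.58 and 263.07 TPM, had a log2 ratio of -0.02 in the authors' deposited table, and the ribosome-associated HSPA14 one of -0.10. HSPA2, known from the testis, was close to absent at 2.60 and 2.57 TPM.

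HSPA1A and HSPA1B are neighbouring copies on the plus strand of chromosome 6 (31815464 to 31817946 and 31827735 to 31830255 in GRCh38, GENCODE 29). Their longest open reading frames have 1926 bases each and differ at 4 positions, so reads can seldom be assigned to a single copy. Their deposited means do not come from whole numbers of reads. The sum of the pair does not depend on how reads were assigned between the copies, and went from 36361 to 31598 mean reads in the authors' deposited table. Scaled as the deposited fold changes are, this is a log2 ratio of -0.15. Both copies are rich in GC (59.7 and 58.7%) and stood below other genes of that composition. With the GC and length trend removed, their fold changes were -0.23 each and passed the test (adjusted p = 0.00671 and 0.0103), where 2.66% of all genes were called, 1.63% higher and 1.03% lower. They also passed on the ratio of mean TPM, at -0.22 and -0.23 (adjusted p = 0.00734 and 0.00791), a scale on which the median of all genes was -0.07.

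The stretches below show 170 bases of the RefSeq promoter window of each copy, starting at the first base of the HSPA1A window and at the second of the HSPA1B window so that the copies align (GRCh38.p14, plus strand, chr6:31815293-31815462 and chr6:31827489-31827658), because the copies are nearly the same in the coding region. The capitals mark a pair of inverted heat shock units. The stretches are the same at 163 of 170 positions (95.9%).
HSPA1A: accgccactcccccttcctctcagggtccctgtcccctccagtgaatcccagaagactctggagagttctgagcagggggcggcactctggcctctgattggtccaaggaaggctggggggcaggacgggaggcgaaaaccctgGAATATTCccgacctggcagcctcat
HSPA1B: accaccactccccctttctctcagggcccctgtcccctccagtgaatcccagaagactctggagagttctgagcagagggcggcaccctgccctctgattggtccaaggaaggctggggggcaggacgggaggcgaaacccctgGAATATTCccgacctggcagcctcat

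The HSP110 genes, relatives of HSP70 that serve as its nucleotide exchange factors, all had deposited fold changes below 0, and none of the 3 was called. HSPH1 went from 203.2 to 176.0 TPM in the authors' deposited table, with a log2 ratio of -0.13 (interval from -0.24 to -0.02, adjusted p = 0.233), and passed the test on the ratio of mean TPM (-0.21, where the median of all genes was -0.07). With the GC and length trend removed it did not pass, at -0.08 (adjusted p = 0.720). HSPA4L, at 10.6 and 8.36 TPM, had the lowest value of the abundant members in the authors' deposited table, -0.27, with a wide interval from -0.51 to -0.02 (adjusted p = 0.310). HSPA4, at 135.2 and 123.1 TPM, had a log2 ratio of -0.06 in the authors' deposited table.

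J-domain proteins, which bring clients to HSP70 and set off its ATPase, showed no call among 8 genes, with log2 ratios between -0.07 and 0.17 in the authors' deposited table. DNAJA1, the most abundant, went from 399.4 to 374.5 TPM with a log2 ratio of -0.02 (interval from -0.13 to 0.09) in the authors' deposited table. DNAJB1, a classic HSF1 target, had means of 302.3 and 296.7 TPM and a log2 ratio of 0.05 (interval from -0.06 to 0.16, adjusted p = 0.923) in the authors' deposited table. DNAJB2 had the second highest value of the abundant members, 0.17 in the authors' deposited table (interval from 0.00 to 0.34, adjusted p = 0.401), at 36.5 and 39.8 TPM. DNAJA2 (-0.03), DNAJB4 (-0.07) and DNAJB6 (0.04) had intervals that cross 0 in the authors' deposited table. The mitochondrial DNAJA3 stood at -0.00, and DNAJB12, which sits in the membrane of the endoplasmic reticulum, at 0.07 in the authors' deposited table.

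Of the 5 BAG genes, whose products release nucleotide from HSP70 or link it to degradation, 4 had deposited fold changes above 0, or 2 on the ratio of mean TPM, and none was called. BAG3, a stress-induced factor of selective autophagy, went from 311.7 to 321.4 TPM with a log2 ratio of 0.12 (interval from -0.01 to 0.25, adjusted p = 0.463) in the authors' deposited table. BAG6, which guards membrane proteins before insertion, had 0.16 (adjusted p = 0.170), and BAG5 had -0.17 (adjusted p = 0.469) in the authors' deposited table. BAG1 and BAG2 lay at 0.03 and 0.07 there.

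TRAP1, the HSP90 of mitochondria, fell to 0.862 of its control level in the authors' deposited table, a log2 ratio of -0.21. Its mean was 182.43 TPM in sgControl and 149.57 TPM in sgMETTL13, with 3149 and 2618.67 mean reads, an implied standard error of 0.060, an interval from -0.33 to -0.10 and an adjusted p of 0.0140 in the authors' deposited table. The gene occupies bases 3651639 to 3717597 of chromosome 16, minus strand (GRCh38, GENCODE 29). With a GC content of 58.2%, TRAP1 stood further below genes of like composition than its deposited value shows: with the trend removed the log2 ratio was -0.29. TRAP1 kept its call under that removal and with centred fold changes, a shift of only 0.0014 (the median of all genes). It was also called on the ratios of mean reads and of mean TPM, where the median of all genes was -0.05 and -0.07. Both ratios were tested against 0 without centring, so these calls add no support for a gene already below 0. TRAP1 lost its call at a threshold of 0.01 and with a Bonferroni adjustment. Its exons share 1531 bases, 29.3% of their length, with DNASE1 on the opposite strand, a gene with 201.43 and 208.79 mean reads and a log2 ratio of 0.11 in the authors' deposited table. Exons of TRAP1 also overlap those of AC006111.2 on the same strand, by a length that was not measured.

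The cytosolic HSP90 genes were not called. HSP90AB1, the constitutive form, had means of 1261 and 1190 TPM and a log2 ratio of -0.01 (interval from -0.11 to 0.08, adjusted p = 0.968) in the authors' deposited table. HSP90AA1, the inducible form, had 747.9 and 655.5 TPM and a log2 ratio of -0.12 (interval from -0.24 to 0.01, adjusted p = 0.457) in the authors' deposited table. The level of HSP90AB1 was 1.69 times that of HSP90AA1 in sgControl and 1.82 times in sgMETTL13 by mean TPM.

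None of the 8 HSP90 partner genes was called. STIP1, which hands clients from HSP70 to HSP90, was the most abundant, at 469.8 and 420.6 TPM, with a log2 ratio of -0.09 (interval from -0.20 to 0.03, adjusted p = 0.681) in the authors' deposited table. CDC37, which loads protein kinases onto HSP90, had 421.0 and 440.0 TPM and a log2 ratio of 0.14 in the authors' deposited table. The ATPase activator AHSA1 (-0.01), PTGES3, which holds the closed state of HSP90 (0.01), the immunophilin FKBP4 (-0.08), CHORDC1 (-0.10) and the ubiquitin ligase STUB1 (0.09) lay within the spread implied by the authors' deposited table. FKBP5, a glucocorticoid-induced immunophilin, was scarce at 3.44 and 2.47 TPM, and its log2 ratio of -0.41 in the authors' deposited table had an interval from -0.84 to 0.01.

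**Figure D2:**
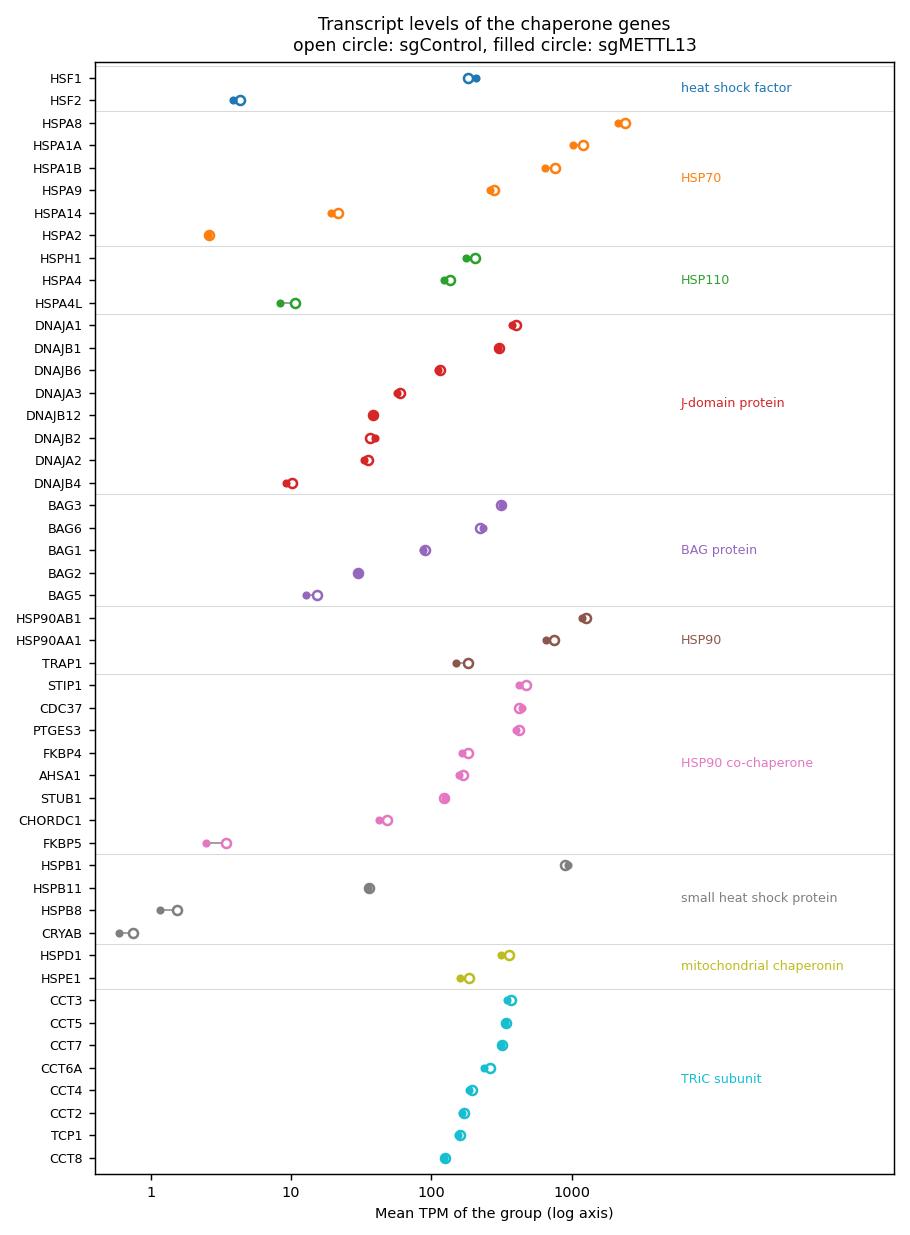
Mean TPM of each chaperone gene in sgControl (open circles) and sgMETTL13 (filled circles) on a log axis, from the authors' deposited table, ordered by level within each class. The levels span from 0.74 TPM for CRYAB to 2412 TPM for HSPA8 in sgControl, and the circles of a gene lie close together beside that range.

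Small heat shock proteins, which hold unfolded proteins without ATP, were represented by HSPB1. Its mean level was 898.3 TPM in sgControl and 942.4 TPM in sgMETTL13, with a log2 ratio of 0.14 (interval from -0.02 to 0.31, adjusted p = 0.527) in the authors' deposited table. With the GC and length trend removed, the value was -0.00. HSPB8, a partner of BAG3, averaged 23 and 17.67 reads and CRYAB averaged 5 and 2.67 reads in the authors' deposited table, too few to show a change of this size. HSPB11, a subunit of the intraflagellar transport machinery despite its name, had a log2 ratio of -0.01 in the authors' deposited table.

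HSPD1 and HSPE1 encode the chamber and the lid of the mitochondrial chaperonin, and their genes lie head to head on chromosome 2. In the authors' deposited table HSPD1 had means of 360.2 and 311.3 TPM and HSPE1 had means of 185.3 and 159.1 TPM. Their log2 ratios there were -0.14 (interval from -0.26 to -0.02, adjusted p = 0.288) and -0.15 (interval from -0.31 to 0.02, adjusted p = 0.514). The ratio of HSPD1 to HSPE1 by mean TPM was 1.94 in sgControl and 1.96 in sgMETTL13. Together with HSPA9, DNAJA3 and TRAP1 they are the 5 mitochondrial members, of which TRAP1 was the 1 called; the deposited log2 ratios of the 5 had a median of -0.14, while with the trend removed HSPA9 lay above 0.

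The subunits of TRiC, the cytosolic chaperonin that folds actin and tubulin, stayed close to their control levels. None of the 8 was called, and the log2 ratios in the authors' deposited table ran from -0.06 for CCT6A to 0.04 for CCT5, with intervals that together reach from -0.18 to 0.17. Levels per length ran from 125.8 TPM for CCT8 to 368.6 TPM for CCT3 in sgControl in the authors' deposited table, a 2.93-fold range, and the same pair was 2.83-fold apart in sgMETTL13. CCT5, CCT7, CCT6A, CCT4, CCT2 and TCP1 lay between them, at 340.2, 318.4, 262.1, 195.5, 170.1 and 160.1 TPM. In the deposited fold changes 5 subunits were above 0 and 3 below, and on the ratio of mean TPM all 8 were below 0, with a median of -0.05 against -0.07 for all genes.

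By unadjusted p-value, 4 members were higher and 7 lower with p under 0.05 in the authors' deposited table. The higher ones were HSF1, CDC37, BAG6 and DNAJB2, and the lower ones TRAP1, HSPA1B, HSPA1A, HSPH1, HSPD1, HSPA4L and HSPA8. All 11 are among the 43 abundant members, where they make up 9.30% and 16.3%. Of all abundant genes 13.7% were higher and 7.27% lower by the same p-value, and of all 16617 genes 7.65% and 4.8%. HSPA1A and HSPA1B are 2 of the 7 lower members, although their reads can seldom be assigned to a single copy. Without the pair, 4 of 47 members were higher (8.51%) and 5 lower (10.6%), and 41 of the 47 are abundant. In the deposited ratios 30 of the 49 members were below 0, as were 8278 of all 16617 genes (49.8%). With the GC and length trend removed 33 members were below 0 and 16 above, and 8874 of all genes below and 7337 above. The ratio of mean TPM lies lower for genes in general (median of all genes -0.07), and on it 42 members were below 0 and 7 above, and 10019 of all genes below and 5273 above. By mean TPM the 49 genes together went from 1.43% to 1.33% of all transcripts. In bulk RNA, fewer cells with a transcript and less of it per cell cannot be told apart.

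Abundant members with transcripts rich in GC tended to have the higher ratios, as did other abundant genes. Over all 49 members, Pearson's r between GC content and the deposited log2 ratio was 0.22 (Spearman's rho 0.33). Over the 43 abundant members it was 0.46 (rho 0.42), and over 8289 abundant genes 0.33 (rho 0.36). These are correlations across genes of the same 6 libraries, which are not independent replicates. The 4 members that were higher by unadjusted p-value had GC contents of 59.9% or more. HSPA1A, HSPA1B and TRAP1 lay below 0 at GC contents between 58.2 and 59.7%. The part of GC content in any single gene's value was not tested beyond the removal of the trend.

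**Figure D3:**
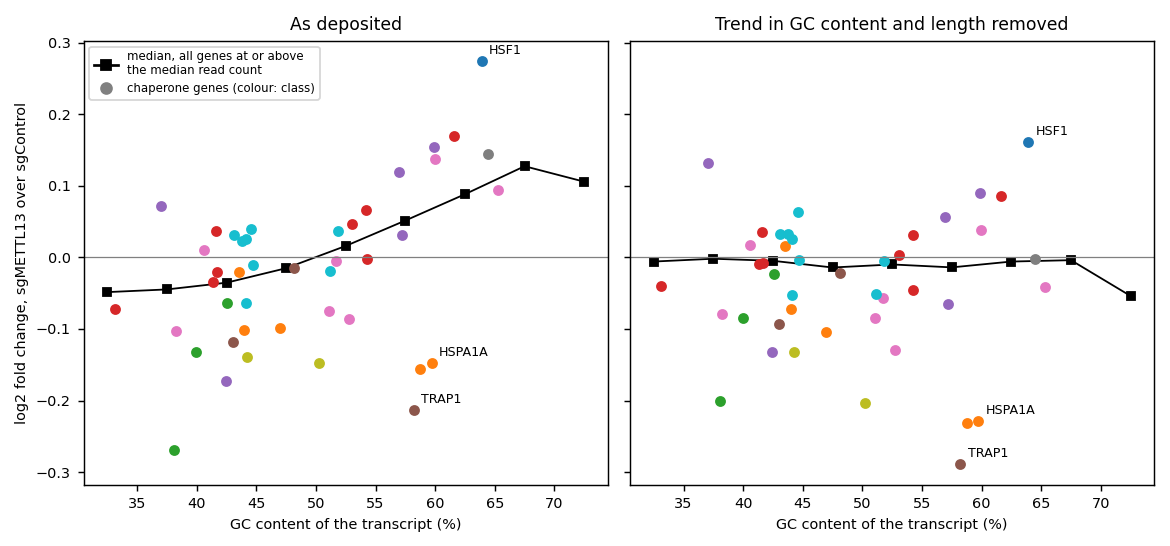
Log2 ratio of the 43 abundant chaperone genes (coloured points, by class) against the GC content of the transcript, as deposited (left) and with the GC and length trend removed (right); black squares are medians of all abundant genes in bins of 5% GC. HSF1 moves from 0.27 to 0.16, while TRAP1 and HSPA1A move from -0.21 to -0.29 and from -0.15 to -0.23.

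Heat shock elements were looked for in the 250 bases before each RefSeq start site (GRCh38.p14), as the letters GAANNTTC or TTCNNGAA, where N is any base. Both read the same on the opposite strand, and neighbouring matches can overlap by 3 bases. Of the members 42 have a promoter window in the table used, and HSF1, HSPA14, FKBP4, STUB1, HSPB11, CRYAB and CCT6A have none there. In 17 of the 42 (40.5%) at least 1 window held a match, against 14.0% of the 27305 genes with a window. The stricter run of 3 alternating units (such a pair joined to a further GAA or TTC, with NN between each unit and the next) was in 6 members (14.3%) and in 0.557% of all genes. The members were HSPA8, HSP90AA1, HSP90AB1, CHORDC1, HSPD1 and DNAJB6. The sites are shown with their flanks because they are the letters that HSF1 is known to bind; the capitals mark the run of 3 units, and where a window holds several runs the last is shown.
HSPA8: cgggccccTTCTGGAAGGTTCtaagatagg
HSP90AA1: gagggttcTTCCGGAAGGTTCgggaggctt
HSP90AB1: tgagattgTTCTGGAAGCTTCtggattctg
CHORDC1: aaattcgcGAAGGTTCCTGAAacgcaacgg
HSPD1: attttctgGAAAGTTCTGGAAccgagcgag
DNAJB6: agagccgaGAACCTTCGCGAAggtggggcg

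These 30-base stretches lie at chr11:123062170-123062199 (HSPA8), chr14:102087111-102087140 (HSP90AA1), chr11:90223078-90223107 (CHORDC1) and chr2:197500059-197500088 (HSPD1) on the minus strand. On the plus strand they lie at chr6:44247823-44247852 (HSP90AB1) and chr7:157336865-157336894 (DNAJB6). The runs begin at position -55 from the start site in HSPA8, -88 in HSP90AA1, -112 in HSP90AB1, -50 in CHORDC1, -240 in HSPD1 and -131 in DNAJB6. The stretches of HSPA8, HSP90AA1, CHORDC1 and HSPD1 overlap an exon of some transcript in GENCODE 29, and those of HSP90AB1 and DNAJB6 overlap none. A match is a description of letters and shows no binding.

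None of the 6 genes with a run of 3 units was called as deposited or with the GC and length trend removed. HSPA8 and HSPD1 passed on the ratio of mean TPM (-0.17 and -0.21, adjusted p = 0.0170 and 0.0229). That scale was tested against 0 without centring, and the median of all genes on it was -0.07. The log2 ratios of the 6 genes in the authors' deposited table were -0.10 for HSPA8, -0.12 for HSP90AA1, -0.01 for HSP90AB1, -0.10 for CHORDC1, -0.14 for HSPD1 and 0.04 for DNAJB6. The median was -0.10, and that of the 11 members with pairs of units only (HSPA1A, HSPA1B, HSPA4L, DNAJA1, DNAJB1, DNAJB4, BAG2, HSPB1, HSPB8, CCT2 and TCP1) was -0.02. It was -0.01 over the 25 members with a window and no match, 1 of which, TRAP1, was called. HSPE1 (-0.15) is among these 25, although the HSPD1 window, which overlaps an exon of HSPE1, holds runs of 3 units. Of the 6 genes with a run, 5 lay below 0 as deposited and with the GC and length trend removed, where 30 and 33 of all 49 members did. On the ratio of mean TPM all 6 lay below 0, where 42 of the 49 members did.

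**Figure D4:**
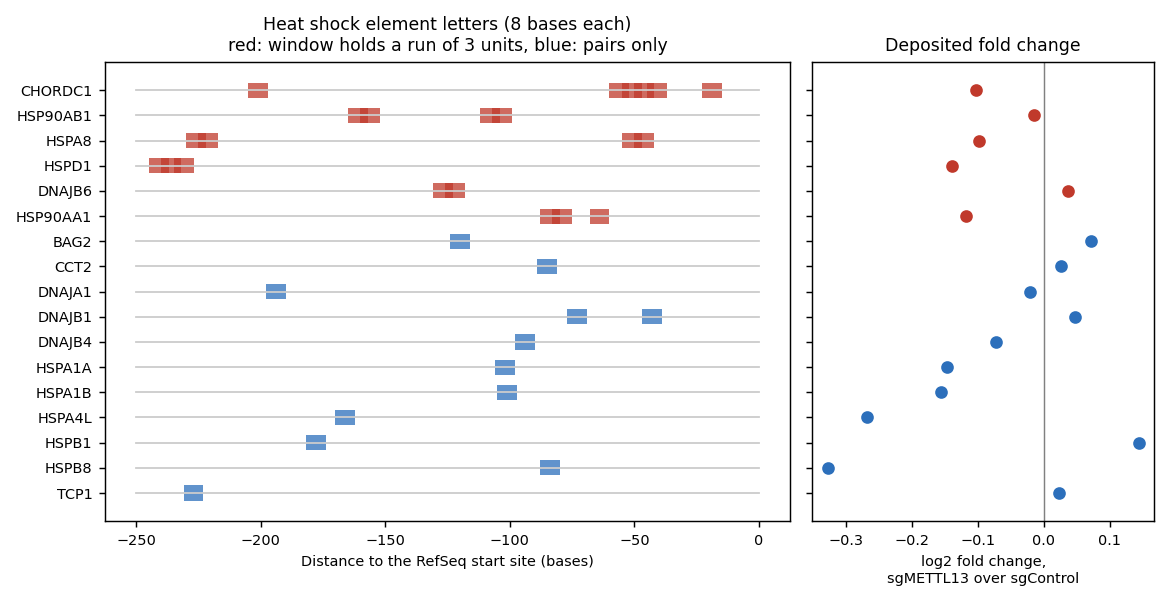
Left, positions of the heat shock element letters in the 250 bases before the start site of the 17 members with a match, each box 8 bases long; right, the log2 ratio of the same gene, sgMETTL13 over sgControl, from the authors' deposited table. The 6 genes in red hold a run of 3 units, and their values lie between -0.14 and 0.04.

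Further genes of the chaperone network were taken from a list of 93, of which 85 are in the table. Of the 85, the authors' deposited table calls 3, each of them higher, beside 2.73% higher and 1.08% lower of all genes. By unadjusted p under 0.05, 10 (11.8%) were higher and 1 (1.18%) lower, beside 7.65% and 4.8% of all genes. Of the 85 genes 64 are abundant, and of all abundant genes 13.7% were higher and 7.27% lower by the same p-value. PPIF, the mitochondrial cyclophilin that regulates the permeability transition pore, rose 1.23-fold, from 247.04 to 288.99 TPM, with a log2 ratio of 0.30 (interval from 0.19 to 0.41, adjusted p = 1.12e-05) in the authors' deposited table. FKBP8, an immunophilin of the mitochondrial outer membrane, rose by 0.26 (adjusted p = 0.0162) and DNAJC5, the J-domain protein of secretory vesicles, by 0.19 (adjusted p = 0.0243) in log2 ratio in the authors' deposited table. With the GC and length trend removed PPIF stayed called (0.26, adjusted p = 0.000499), while FKBP8 (0.12, adjusted p = 0.631) and DNAJC5 (0.15, adjusted p = 0.155) did not. The median log2 ratio of the 85 was -0.01 in the authors' deposited table.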

How the data were processed

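Total RNA of T3M4 cells was extracted with TRIzol and made into libraries by a company, per the labels' protocols. The submitters' processing notes name RSEM 1.2.12, Bowtie2 2.2.5, HISAT2 2.0.4, DESeq2 without a version, and the builds GRCh38.p12 and hg38, and give neither order nor role. The authors deposited group means as TPM, FPKM (not used) and expected counts (estimated reads), and a log2 ratio with a p-value and q-value; the q-value, within 1.20% of a Benjamini-Hochberg adjustment, is called the adjusted p, and genes under 0.05 are called. For abundant genes the deposited log2 ratio equals the log2 of the ratio of mean reads plus 0.0516 (SD 0.0007). Depth per library is unknown; precision is the implied standard error, which assumes a normal test. Since the deposited values are means, no count model was fitted, although one had been planned for counts per library.

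The members, classes and lists were chosen with earlier results of these data known. Given in full are the heat shock factors, called members, the most abundant member of each class, and the extreme abundant members; other members are named with their values to account for all of them. GC content and length are those of 1 GENCODE 29 transcript per gene (APPRIS principal, else the longest coding), matched by Entrez ID for 16211 genes (97.6%) and 49 members. The trend was fitted with natural cubic splines (4 degrees of freedom each) with weights from the implied standard errors. Its removal left a median of -0.019 over all genes. The p-values were then recomputed against 0 with the same implied standard errors and adjusted over all genes. The same was done for centred values and for ratios of means, and the latter were not centred. The summed reads of a group are not whole in 8 members (tolerance 0.005), and exons of 24 members overlap another gene. Alternatives were other thresholds and adjustments, a filter on reads, centring, ratios of means and removal of the trend. Steps were tested on simulated data. The software was patsy 1.0.2, scipy 1.17.1, matplotlib 3.10.9, pandas 2.3.3 and numpy 2.4.6 under Python 3.11.15. Promoter sequences are from RefSeq (GRCh38.p14).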

Additional observations from a re-analysis of the deposited data

How the results depend on the processing

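Of the 2 called members, 1 (HSF1) remained at an adjusted p under 0.01 and 0 with a Bonferroni adjustment of the authors' deposited p-values (11 had an unadjusted p under 0.05). Ratios of mean reads and of mean TPM, counted after the data were seen, gave 5 and 7 called members, with 4 and 7 of them lower. Removal of the trend gave 3, all lower. HSPA1A and HSPA1B, whose reads can seldom be told apart, are 2 of the calls in each of these settings. Without the pair, removal of the trend left 1 call (TRAP1), and the 2 calls as deposited stayed. Over all genes 409 were called at 0.01 and 180 with Bonferroni, against 632. Higher calls were 453 of 632 as deposited, 294 of 678 on the ratio of mean reads, 246 of 826 on the ratio of mean TPM and 265 of 432 with the trend removed. In the wider list 1 of 3 calls was made at 0.01, with Bonferroni, with the trend removed and on the ratio of mean reads. The median of the members was -0.018 as deposited and -0.091 on the ratio of mean TPM, a scale that moved the median of all genes from 0.0014 to -0.071. Centring changed no member's call. The run of 3 units was in 6 members where pairs were in 17. No paired analysis was possible because the table holds group means; for the same reason leaving out a replicate, DESeq2 and edgeR were not run. Depth limits the 6 members below 205 mean reads.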
